A study of Mus musculus with 4 samples.

Results

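The annexins are proteins that bind phospholipid membranes in the presence of calcium, and several of them carry a short calcium-binding S100 protein as a partner. Annexin A2 pairs with S100A10 (p11) in a complex that links the membrane to the actin cortex and can bind plasminogen at the cell surface, and annexin A1, known as a mediator that limits neutrophil recruitment, can pair with S100A11. In the pancreas annexins are found in acinar and duct cells, where they take part in vesicle traffic and membrane repair, and several S100 genes are known to be higher in stromal, immune and injured epithelial cells. The genes described here are 5 annexins (Anxa1, Anxa2, Anxa3, Anxa4 and Anxa5) and 4 S100 genes (S100a4, S100a6, S100a10 and S100a11), 9 of the 32285 genes in the files, chosen by name. All 9 had UMIs in each section.

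The genes were read with CytAssist Visium on pancreas that had been fixed in formalin and embedded in paraffin. Probes specific for each gene are transferred to a slide whose spots carry barcodes, and a unique molecular identifier (UMI) lets every probe molecule be counted a single time. There were 4 sections of C57Bl/6 mice, 2 of each genotype, and both groups carried Pdx1-Cre. The group called Ehmt2 +/+ here is labelled PDX1-Cre (WT) and the group called Ehmt2 fl/fl is labelled as the EHMT2 knockout (KO), names that follow the study. Pdx1-Cre is active in the pancreatic epithelial lineage, so a floxed Ehmt2 allele, which encodes a histone H3 lysine 9 methyltransferase, stays intact in stromal and immune cells. Every mouse was 4 weeks old by the study's methods, was fasted for 12 h and then received 8 hourly intraperitoneal injections of caerulein at 50 μg/kg, a cholecystokinin analogue that causes acute pancreatitis, and tissue was taken 18 h after the first. No saline-treated section was analysed here, so no value below compares an injured with an uninjured pancreas.

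Spots of at least 500 UMIs were used. Wherever 4 values follow each other, they stand for Ehmt2 +/+ replicate 1, Ehmt2 +/+ replicate 2, Ehmt2 fl/fl replicate 1 and Ehmt2 fl/fl replicate 2. The genotypes are those of the labels, and the replicate numbers only name the sections. They had 6144, 7871, 6483 and 6462 such spots. Ehmt2 +/+ replicate 1 stood apart in depth, with 43784930 UMIs in these spots against 6643747 to 7938386 in the other 3 sections. Of all UMIs, 62.6%, 51.9%, 21.9% and 21.2% belonged to genes of digestive enzymes. Because a gene's share of all UMIs moves when the enzymes move, levels are given here as nCPM, the CPM (counts per 1e6 UMIs) taken over all genes other than 34 digestive enzyme genes, and CPM over all UMIs is named where it is used. Probes differ in efficiency, so no gene is ranked by its level against another, and shares and ratios of genes are set against the same share or ratio in other sections or spots. Ehmt2 itself gave 865, 31, 67 and 96 UMIs, between 0.795 times and 78.6 times the level of the median olfactory receptor gene of the same section, which leaves too little signal in 3 sections to check the labels by it. The Y-linked genes Ddx3y, Uty, Eif2s3y and Kdm5d gave 0 or 1 UMI each in both sections labelled Ehmt2 +/+ and 33 to 139 UMIs each in both sections labelled Ehmt2 fl/fl, so genotype and sex cannot be told apart. At their highest these genes lay at 0.981, 1.35, 1.80 and 0.611 times the olfactory median. The olfactory median was alike in Ehmt2 +/+ replicate 2 and Ehmt2 fl/fl replicate 1, at 10.3 and 10.4 nCPM. There the 4 Y-linked genes gave 0 UMIs each and 33 to 97 UMIs each, so they differed at a like background. Xist, also sex-linked, gave 0 UMIs in each section, the deepest included, so it tells nothing about sex here. Counts at the background level do not settle the sex of each mouse.

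Genes of the olfactory receptor family, which the pancreas is not expected to use, give the level of background counts. The median of 1135 such genes lay at 0.672, 10.3, 10.4 and 16 nCPM. Anxa2, Anxa3, Anxa4, Anxa5, S100a4, S100a6, S100a10 and S100a11 were above every olfactory receptor gene in each section. Anxa1 was 21.6, 2.72, 4.06 and 2.55 times the olfactory median, and 3 olfactory receptor genes in Ehmt2 +/+ replicate 2 and 6 in Ehmt2 fl/fl replicate 2 were at or above it. In each section it had the lowest level of the 9 relative to the olfactory median. The 9 genes were also read in spots poor in other cell types. Among spots thinned at random to 500 UMIs, about 3572, 3540, 560 and 705 held no UMI of the islet, fibroblast, smooth muscle, endothelial, macrophage, neutrophil, lymphoid, mesothelial, adipocyte or red blood cell marker lists. Each gene had UMIs there, which does not by itself set a gene apart from background. Anxa1 was found in 0.276%, 0.540%, 1.16% and 1.21% of these spots. At 500 UMIs a spot can miss markers of cells that it holds, so these spots are poor in such cells and not free of them. Enzymes take a larger part of the 500 UMIs in the Ehmt2 +/+ sections, so the filter does not act alike in the genotypes.

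Of the genes' positions on the mouse genome (GRCm38, GENCODE M21), all 4 S100 genes lay on chromosome 3 on the plus strand. S100a4 (chromosome 3, 90603771 to 90606045) and S100a6 (90612882 to 90624181) were 6836 bases apart, and S100a11 (93520488 to 93526287) and S100a10 (93555080 to 93564643) lay farther along. Anxa5 lay on the same chromosome (36448923 to 36475894, minus strand). Anxa1 was on chromosome 19 (20373428 to 20390944, minus strand), Anxa2 on chromosome 9 (69453620 to 69491795, plus strand), Anxa3 on chromosome 5 (96793339 to 96845966, plus strand) and Anxa4 on chromosome 6 (86736840 to 86793584, minus strand). All 9 are protein-coding.

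The first comparison asked how the 9 genes differed between genotypes after caerulein. S100a10 and S100a4 had the largest ratios of mean level between genotypes among the 9 (4.71 and 4.39 times, in the unit defined above), with both Ehmt2 fl/fl sections above both Ehmt2 +/+ sections, and Anxa4 was the gene that lay lower in both Ehmt2 fl/fl sections. None of the 9 passed the test across all genes (edgeR quasi-likelihood test with TMM normalization, Benjamini-Hochberg adjustment), in which 22 of 20053 genes, 0.11%, were called and 1059 had an unadjusted p under 0.05, none of them among the 9. The common dispersion was 0.351.

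**Figure D1:**
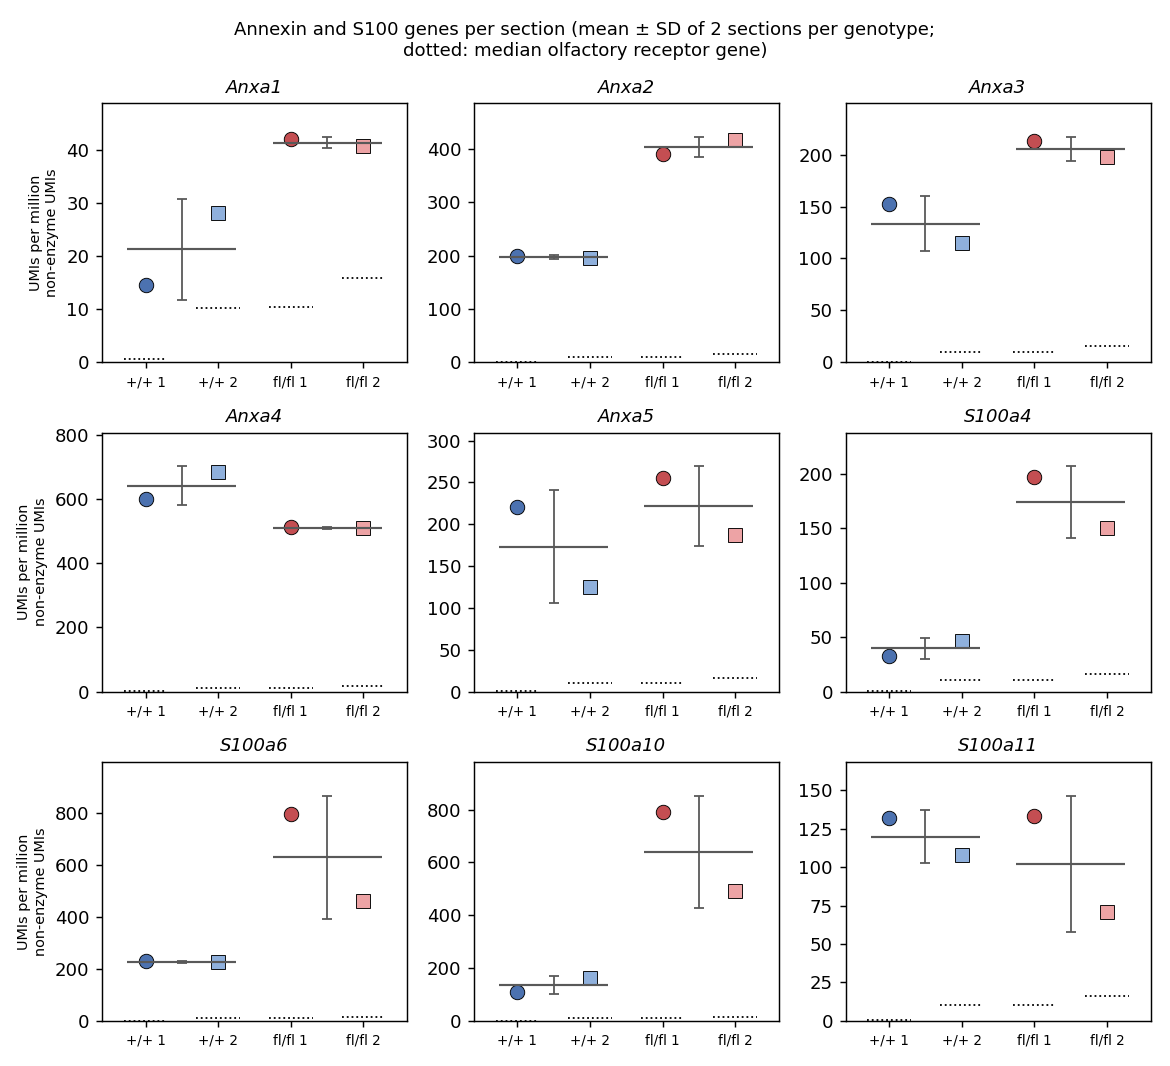
nCPM (y axis, from 0) of each of the 9 genes in the 4 sections (x axis; circles replicate 1, squares replicate 2), with the mean and SD of the 2 sections of a genotype as a grey line and bar and the median olfactory receptor gene of each section as a dotted line. S100a10 lay at 111 and 161 in the Ehmt2 +/+ sections and at 791 and 490 in the Ehmt2 fl/fl sections, while the S100a11 values of the genotypes overlap.

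Among the S100 genes, S100a10, the partner of annexin A2, gave 111, 161, 791 and 490 nCPM. The mean was 136 ± 35.2 (SD, n = 2) against 641 ± 212 (SD, n = 2), and the lower Ehmt2 fl/fl section was 3.05 times the higher Ehmt2 +/+ section. S100a4, a gene often used to mark fibroblasts and myeloid cells, gave 33.0, 46.4, 197 and 151, and its lower Ehmt2 fl/fl section was 3.25 times the higher Ehmt2 +/+ section. S100a6 (calcyclin) gave 230, 225, 798 and 463, so that the Ehmt2 +/+ sections were close to each other and the Ehmt2 fl/fl sections were not. S100a11, the partner of annexin A1, gave 132, 108, 133 and 70.6, and the genotypes overlapped. For S100a10 and S100a6 the spread between the Ehmt2 fl/fl sections was wider than that between the Ehmt2 +/+ sections, with replicate 1 the higher of the pair.

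Among the annexins, Anxa2 gave 200 and 195 nCPM in the Ehmt2 +/+ sections and 391 and 417 in the Ehmt2 fl/fl sections, with little spread within either genotype. Anxa3 gave 152, 115, 213 and 197. Anxa1 gave 14.5, 28.1, 42.2 and 40.8, and with the median olfactory receptor gene taken off in each section 13.9, 17.8, 31.8 and 24.8. Anxa4, an annexin of secretory epithelium, gave 599, 684, 513 and 509, with both Ehmt2 fl/fl sections below both Ehmt2 +/+ sections. Anxa5, the annexin widely used to label dying cells through phosphatidylserine, gave 221, 126, 255 and 188, and the genotypes overlapped. Two-sided exact permutation tests over the 4 sections gave p = 0.333, the smallest that 2 against 2 allows, for Anxa1, Anxa2, Anxa3, Anxa4, S100a4, S100a6 and S100a10, p = 0.667 for Anxa5 and p = 1 for S100a11.

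These counts have to be read against all genes. On this scale 6 of the 9 genes were higher and 1 was lower in both Ehmt2 fl/fl sections, where 51.8% of the 20024 tested genes outside the enzyme list were higher and 5.57% lower. On CPM, with the enzymes in the total, all 9 genes were higher in both Ehmt2 fl/fl sections, and so were 91.8% of 20053 genes, against 0.778% lower. The count of members that did not overlap was thus close to the background on both scales and is no result about the family.

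The direction of most of the 9 depended on how the sections were scaled. With TMM factors of 0.288, 0.957, 1.71 and 2.13 the median log2 fold change of all genes, Ehmt2 fl/fl over Ehmt2 +/+, was 0.25, and it was 1.69 with library sizes alone, 0.55 with upper-quartile normalization and -0.04 with DESeq2. S100a10 had a log2 fold change of 1.27 ± 1.07 (SE, adjusted p = 0.863) in the edgeR fit with TMM, 3.08 with library sizes alone, 1.82 with upper-quartile normalization and 0.87 with DESeq2. S100a4 had 1.14 ± 0.92 (SE, adjusted p = 0.863), and 2.99, 1.71 and 0.73 in the same order. These were the 2 genes of the 9 whose log2 fold change was above that of the median gene in each of 15 fits, the main one, 10 alternatives and 4 with a section left out, by 0.26 to 1.73 for S100a10 and by 0.11 to 1.63 for S100a4. Of 19728 genes present in all fits, 26.2% did so too, so 2 of 9 is no more than the background. The median olfactory receptor gene had a log2 fold change of 0.81 with TMM, 0.94 with upper-quartile normalization and 0.66 with DESeq2. S100a10 and S100a4 lay above it in these fits and with library sizes alone, S100a4 only slightly with DESeq2. Without Ehmt2 +/+ replicate 2 the olfactory median was 2.45, above both genes. It was 0.93 without Ehmt2 fl/fl replicate 1 and 0.66 without Ehmt2 fl/fl replicate 2. With a section left out S100a10 ran from 0.69 to 1.77 and S100a4 from 0.62 to 1.67. Neither gene was thus above this background in every such fit.

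**Figure D2:**
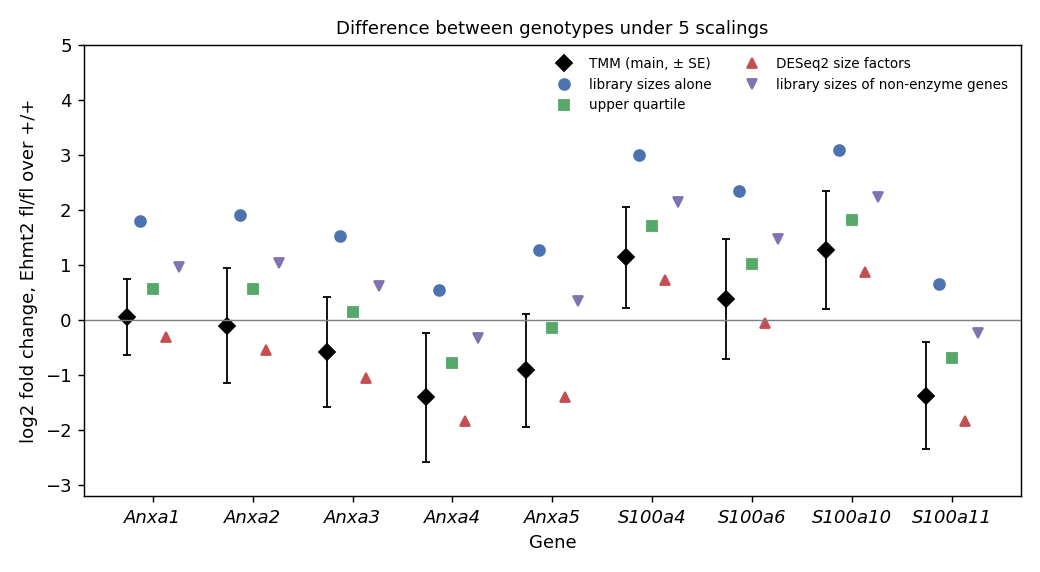
Log2 fold change, Ehmt2 fl/fl over Ehmt2 +/+ (y axis), of each gene (x axis) under 5 ways of scaling the sections: TMM (diamonds, bars are the SE of the fit), library sizes alone, upper quartile, DESeq2 and the library sizes of non-enzyme genes. S100a4 and S100a10 were above 0 under all 5, and the other 7 genes changed sign among them.

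Anxa4 and S100a11 were at the other end. Their log2 fold changes with TMM were -1.41 ± 1.17 and -1.37 ± 0.97 (SE, adjusted p = 0.863 for both), and both lay below the median gene in each of the 15 fits, with differences of -2.53 to -0.71 for Anxa4 and of -2.64 to -0.33 for S100a11, as 25.2% of all genes did. With library sizes alone they were above 0, at 0.54 and 0.66. The other 5 genes were not steady. Anxa5 had -0.91 ± 1.02, Anxa3 -0.58 ± 0.99, Anxa2 -0.10 ± 1.04, Anxa1 0.06 ± 0.68 and S100a6 0.38 ± 1.08 (SE of the edgeR fit with TMM). Anxa2, Anxa3 and Anxa5 were above 0 with library sizes alone, at 1.91, 1.52 and 1.28, and Anxa1 and S100a6 were below 0 with DESeq2, at -0.31 and -0.06. With library sizes alone Anxa2, Anxa3, S100a4, S100a6 and S100a10 passed the threshold (edgeR adjusted p = 0.0307, 0.0354, 0.0304, 0.0340 and 0.0308), and 400 of 20053 genes did. Leaving out an Ehmt2 +/+ section leaves 1 section of that genotype, so only fold changes are given. Without Ehmt2 +/+ replicate 2 Anxa3, Anxa4, Anxa5 and S100a11 had log2 fold changes of -1.36, -2.02, -1.77 and -2.13. Without Ehmt2 +/+ replicate 1 S100a4 had 1.67.

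Shares and ratios among the 9 genes within a section need no scaling of the sections, since the total cancels, but their sizes depend on the probes' efficiencies. The S100 genes made up a larger part of the family's UMIs in the Ehmt2 fl/fl sections. The 4 S100 genes together took 29.9% and 32.0% of the UMIs of the 9 genes in the Ehmt2 +/+ sections and 57.6% and 46.5% in the Ehmt2 fl/fl sections, 30.9% ± 1.5 against 52.0% ± 7.81 (SD, n = 2 each; two-sided exact permutation p = 0.333, the smallest possible). S100a10 took 6.56%, 9.53%, 23.7% and 19.4% of them and S100a4 took 1.95%, 2.75%, 5.92% and 5.97%. S100a6 took 13.6%, 13.3%, 23.9% and 18.3%. S100a11 took smaller shares in the Ehmt2 fl/fl sections, at 7.80%, 6.37%, 4.0% and 2.80%, although its nCPM overlapped between genotypes. The shares of a section add up to the whole, so a larger share of some genes lowers those of the others. Such shares were not formed for other genes, so no background stands beside them. Anxa4 took 35.4%, 40.5%, 15.4% and 20.1%, so its share in either Ehmt2 fl/fl section was below that in both Ehmt2 +/+ sections. Anxa1, Anxa2, Anxa3 and Anxa5 took shares that overlapped between genotypes, such as 11.8%, 11.6%, 11.7% and 16.5% for Anxa2.

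**Figure D3:**
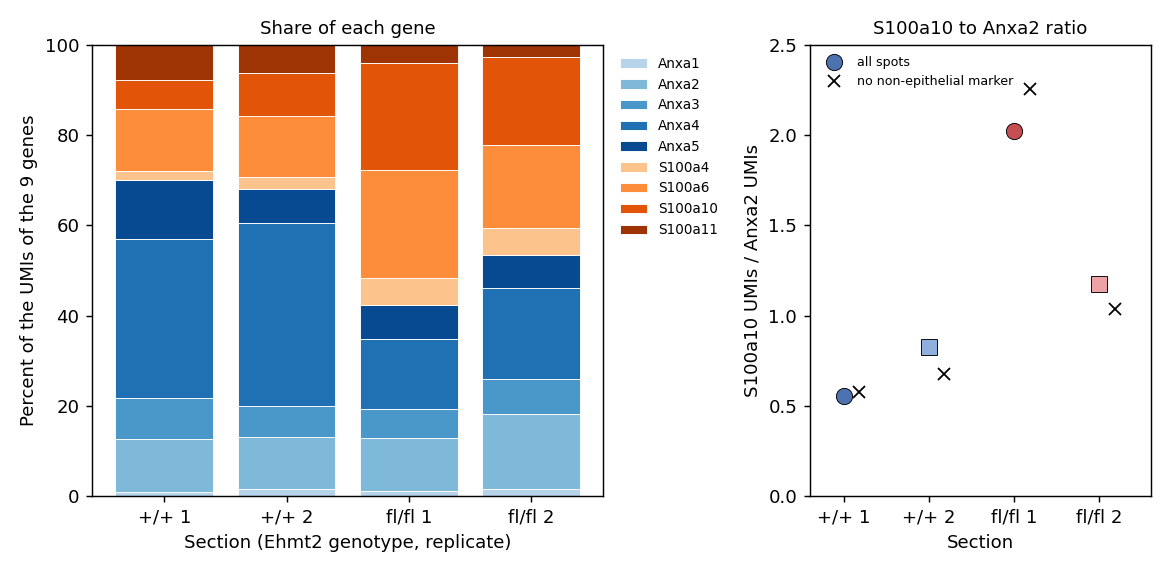
Left, each gene's percent of the summed UMIs of the 9 genes (y axis) in the 4 sections (x axis), annexins in blue and S100 genes in orange. Right, S100a10 UMIs divided by Anxa2 UMIs per section over all spots of at least 500 UMIs (circles and squares) and over spots thinned to 500 UMIs that hold no UMI of a non-epithelial marker list (crosses), where both Ehmt2 fl/fl sections lie above both Ehmt2 +/+ sections.

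For the best known pair, the number of S100a10 UMIs per Anxa2 UMI was 0.555 and 0.825 in the Ehmt2 +/+ sections and 2.02 and 1.18 in the Ehmt2 fl/fl sections (two-sided exact permutation p = 0.333). The value depends on the 2 probes, and the fold between sections does not. In spots without non-epithelial marker UMIs the ratio was 0.579, 0.679, 2.25 and 1.04, and in acinar-marker-rich spots, described below, it was 0.418, 0.405, 2.13 and 1.10. The order of the genotypes was the same in both kinds of spot. Enzymes made up 67.2%, 62.4%, 40.6% and 40.3% of the UMIs of acinar-marker-rich spots, so these spots were not alike between genotypes. For the pair S100a11 and Anxa1 the ratio was 9.09, 3.83, 3.16 and 1.73, where Anxa1 is close to background in the 3 shallower sections. For S100a10 and S100a11, which lie near each other on the chromosome, there were 0.841, 1.5, 5.92 and 6.94 S100a10 UMIs per S100a11 UMI.

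Marker lists of some other cell types differed between the genotypes as well, read without a test. On this scale 51.8% of the 20024 tested genes outside the enzyme list were higher in both Ehmt2 fl/fl sections. Summed over its list, the macrophage markers gave 270, 363, 1401 and 1141 nCPM and the fibroblast markers 1220, 1376, 2932 and 2781, while the epithelial list (Epcam, Cdh1 and keratins among them) gave 10000, 7894, 5930 and 5475. Neutrophil markers gave 11.2, 105, 194 and 202 and duct markers 650, 800, 680 and 681. Islet markers gave 3096.5, 1639, 8718 and 1242.5. The duct and islet lists thus overlapped between the genotypes. The median gene of the neutrophil list lay at 0.977, 13.5, 24.5 and 22.4 nCPM. Beside an olfactory median of 0.672, 10.3, 10.4 and 16, much of the neutrophil sum can be background. Apart from the digestive enzyme list (5 genes at 0) and the red blood cell list (Hba-a1 at 0), no gene of the 13 lists was at 0 in any section. Of the 1135 olfactory receptor genes 28 were at 0 in each section, so a count above 0 does not set a marker apart from background. In sections of tissue a change in the number of such cells and a change in RNA per cell cannot be told apart, and the part of these cells in the genotype differences above was not tested. In spots without non-epithelial marker UMIs, S100a10 gave 1.21, 1.30, 7.74 and 4.33 UMIs per 10000 non-enzyme UMIs, against 1.82, 1.94, 7.94 and 4.75 in the remaining spots. S100a6 gave 2.39, 2.23, 7.13 and 3.98 against 3.37, 2.62, 8.36 and 4.89. Both genes had higher values in both Ehmt2 fl/fl sections in either kind of spot. The spots without non-epithelial marker UMIs were not alike between genotypes, since the epithelial list gave 101, 83.3, 69.8 and 64.7 UMIs per 10000 non-enzyme UMIs in them.

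The share of spots with a UMI of a gene follows depth, so each spot was thinned to 500 UMIs (mean of 20 draws, whose SD lay between 0.0576 and 0.438 percentage points). S100a10 was then found in 2.79%, 4.04%, 26.6% and 17.2% of spots. Without thinning it was found in 24.6% (95% Clopper-Pearson interval 23.5 to 25.7), 7.20% (6.64 to 7.80), 45.3% (44.1 to 46.6) and 35.6% (34.4 to 36.8), where the deep Ehmt2 +/+ replicate 1 rises. S100a6 was found in 5.23%, 5.81%, 26.9% and 17.2% of thinned spots, S100a4 in 0.755%, 1.33%, 7.68% and 6.27%, and Anxa2 in 3.95%, 4.80%, 14.5% and 15.2%. Anxa4 was found in 11.6%, 15.4%, 17.7% and 17.9%, and S100a11 in 2.58%, 2.69%, 4.96% and 2.85%. Anxa1 was found in 0.360%, 0.731%, 1.67% and 1.70%, beside a highest share for any olfactory receptor gene of 0.0911%, 0.945%, 1.38% and 2.25%, so in Ehmt2 +/+ replicate 2 and Ehmt2 fl/fl replicate 2 its share was within the range of background. These intervals cover counting error only. The total of 500 UMIs includes the enzymes, as CPM does. For Anxa4 and S100a11 the sign of the difference between genotypes turned when spots were thinned to 500 non-enzyme UMIs instead. Only spots with that many could be used, 5547, 2556, 6017 and 5949, so Ehmt2 +/+ replicate 2 lost the most spots. The 2 ways of thinning thus used unlike sets of spots.

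The second comparison asked in which spots of a section the genes were read. A spot can hold several cells, so spots were sorted by marker UMIs: the top 10 percent of a section's spots by enzyme share (acinar-marker-rich), or by the UMIs of the duct, islet or fibroblast list per non-enzyme UMI, with at least 3 list UMIs. Enzyme genes and the list's own genes were left out of counts and totals, and sums over rich and other spots of the 4 sections were compared with section as a block (edgeR quasi-likelihood test). There were 615, 788, 649 and 647 acinar-marker-rich spots, 338, 81, 160 and 199 duct-marker-rich, 530, 426, 649 and 347 islet-marker-rich and 472, 313, 647 and 644 fibroblast-marker-rich spots. The classes are relative to a section. Enzymes made up 67.2%, 62.4%, 40.6% and 40.3% of the UMIs of acinar-marker-rich spots and 61.9%, 50.3%, 19.2% and 17.7% of those of the other spots. Acinar-marker-rich spots were deeper than the other spots of each section (a median of 1245 against 957 UMIs in Ehmt2 fl/fl replicate 1, for example) and fibroblast-marker-rich spots were shallower (884 against 992 there). The part of depth in the results below was not tested.

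In acinar-marker-rich spots Anxa1 fell, with 14, 2, 7 and 14 UMIs there and levels of 0.487, 0.168, 0.320 and 0.446 times those of the other spots. Its log2 fold change was -1.20 ± 0.28 (SE, edgeR adjusted p = 0.0107), and it was the single member among the 34 genes called (0.172% of 19752), 33 of which were lower in these spots (0.167%). The few UMIs make this call fragile: with the top 20 percent of spots the value was -0.40 (adjusted p = 0.224), without Ehmt2 +/+ replicate 2 it was -1.04 (adjusted p = 0.0908) and without Ehmt2 fl/fl replicate 1 -1.16 (adjusted p = 0.235). The median olfactory receptor gene had a log2 fold change of -0.31 in the same fit, against -0.14 for the median of all genes. S100a6 (0.814, 0.685, 0.633 and 0.750 times) and S100a4 (0.741, 0.309, 0.518 and 0.849 times) were also lower in the acinar-marker-rich spots of each section without passing the test, with log2 fold changes of -0.25 ± 0.29 and -0.47 ± 0.26 (SE, edgeR adjusted p = 0.787 and 0.538). S100a11 was the gene that was higher there in each section, at 1.0, 1.09, 1.69 and 1.35 times, and its log2 fold change was 0.54 ± 0.26 (SE, edgeR adjusted p = 0.475). Of all genes, 35.1% were lower and 2.53% were higher in these spots in all 4 sections, beside 3 and 1 of the 9. S100a11 passed the threshold with DESeq2 (log2 fold change 0.73, adjusted p = 0.00480), as 1 of 1291 genes and 2 members, and in edgeR without Ehmt2 +/+ replicate 1 (0.86, adjusted p = 2.4e-06), as 1 of 2109 genes and 5 members, so these calls are not particular to it. Unlike in the main fit, most genes called in these 2 fits were higher there, 1274 of the 1291 and 1830 of the 2109.

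**Figure D4:**
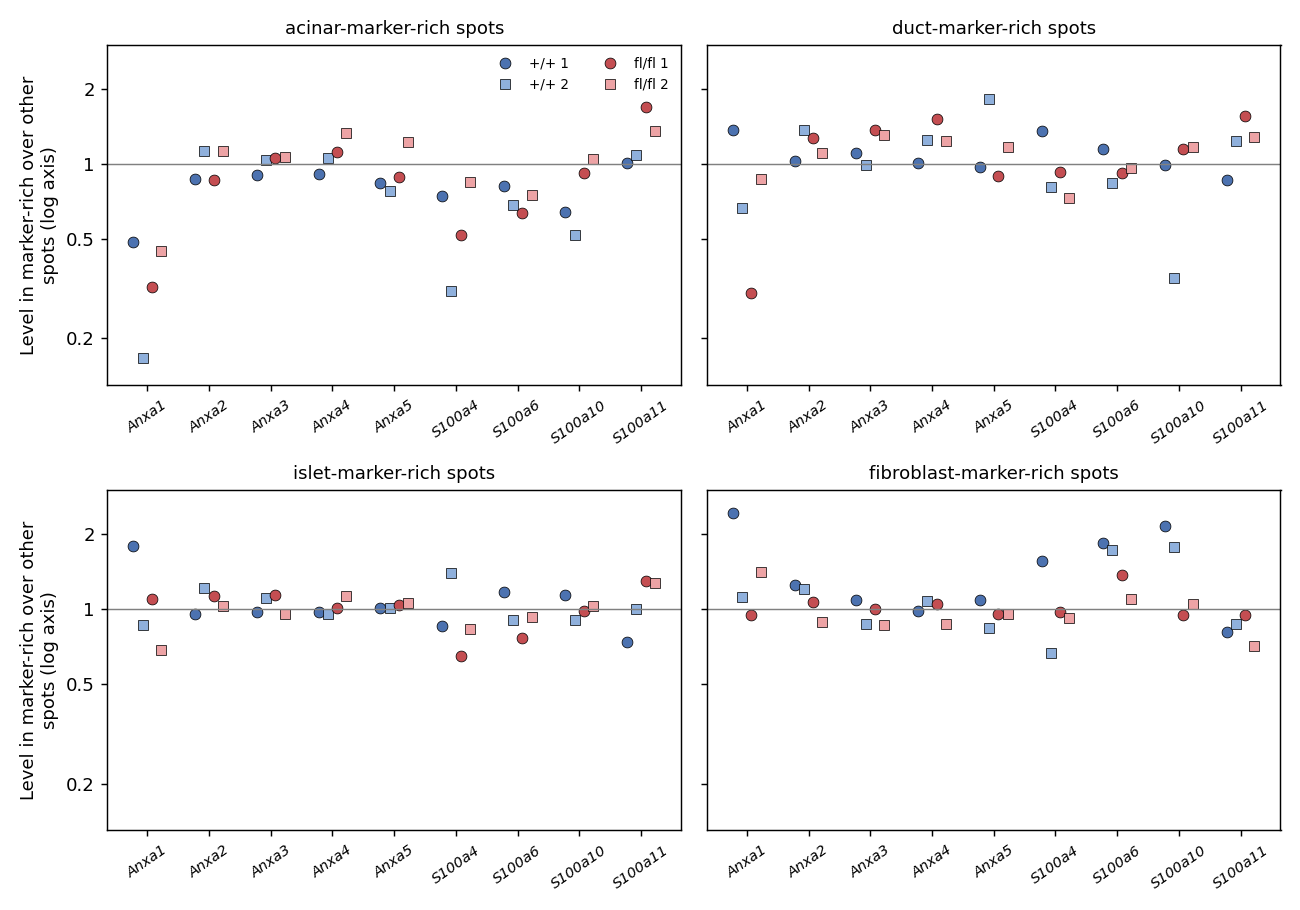
Level in marker-rich spots divided by the level in the other spots of the same section (y axis, log scale; 1 is no difference) for each gene (x axis) and section (colours and symbols), in acinar-, duct-, islet- and fibroblast-marker-rich spots. Anxa1 lies below 1 in the acinar panel in each section, and S100a6 lies below 1 in the acinar panel and above 1 in the fibroblast panel in each section.

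Fibroblast-marker-rich spots gave the opposite picture for some genes. S100a6 was 1.84, 1.72, 1.37 and 1.09 times as high there as in the other spots, and S100a11 0.811, 0.868, 0.945 and 0.711 times, while S100a10 was higher in both Ehmt2 +/+ sections (2.15 and 1.77 times) and near 1 in both Ehmt2 fl/fl sections (0.945 and 1.05 times). None of the 9 was among the 52 genes called (0.264% of 19668). S100a11 had a log2 fold change of -0.54 ± 0.22 (SE, edgeR adjusted p = 0.496) and S100a6 one of 0.30 ± 0.19 (SE, edgeR adjusted p = 0.736). Among all genes 10.5% were higher and 5.35% lower in these spots in all 4 sections, beside 1 and 1 of the 9. With library sizes alone 2 of the 9 were called in these spots, beside 220 of 19668 genes.

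Duct-marker-rich spots showed no called member among 6 called genes (0.0306% of 19594). Anxa4 was 1.0, 1.24, 1.51 and 1.23 times and Anxa2 1.03, 1.36, 1.27 and 1.11 times as high there as elsewhere, the 2 genes of the 9 above 1 in each section, where 4.05% of all genes were above and 10% below 1 throughout. Their log2 fold changes were 0.11 ± 0.17 and 0.04 ± 0.18 (SE, edgeR adjusted p = 0.940 and 0.984), so the direction did not exceed the error. In islet-marker-rich spots 154 genes were called (0.781% of 19708) and none of the 9. Anxa5 was at most 1.06 times as high there, the single gene of the 9 above 1 in all 4 sections, beside 4.75% of all genes above and 9.22% below 1.

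Endothelial- and macrophage-marker-rich spots were too few in Ehmt2 +/+ replicate 2 (26 and 13) and smooth muscle-marker-rich spots in every section (33, 1, 42 and 20) for the fixed minimum of 50. Over the 3 sections that reached it, a choice made after the spots were counted, 0 genes (0%) were called in endothelial-marker-rich spots, with 728 genes at an unadjusted p under 0.05 and 4 genes called by DESeq2, and 5 (0.0253%) in macrophage-marker-rich spots, with no member in either edgeR fit with TMM. In macrophage-marker-rich spots S100a11 had a log2 fold change of -0.64 ± 0.32 (SE, edgeR adjusted p = 0.951) and was below the other spots in each of the 3 sections. S100a4, S100a6 and S100a10 were above the other spots in each of them, and the annexins were mixed. S100a6 was at 1.38 times in Ehmt2 +/+ replicate 1, 1.38 in Ehmt2 fl/fl replicate 1 and 1.47 in Ehmt2 fl/fl replicate 2. Its higher level was thus not particular to fibroblast-marker-rich spots. The share of all genes that did so was not computed.

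Whether the difference between marker-rich and other spots itself differed between genotypes was tested as an interaction. No member passed in acinar- (0.0253% of all genes called), duct- (0.051%), islet- (0.173%) or fibroblast-marker-rich spots (0.214%). In that order, 0, 5, 2 and 1 of the 9 had an unadjusted edgeR p under 0.05. Among all genes 1153 of 19752, 1734 of 19594, 2138 of 19708 and 2685 of 19668 did. The member with the smallest adjusted p was S100a11 in islet-marker-rich spots, with an interaction of 1.22 ± 0.33 (log2, SE, edgeR adjusted p = 0.0824), beside a median of 0.30 for all genes. In duct-marker-rich spots Anxa4 had an interaction of 0.76 ± 0.20 (log2, SE, edgeR adjusted p = 0.108) and S100a11 one of 1.08 ± 0.30 (adjusted p = 0.151), where the median of all genes was 0.42. S100a10, whose ratio of fibroblast-marker-rich to other spots was well above 1 in the Ehmt2 +/+ sections alone, had an interaction there of -0.47 ± 0.25 (log2, SE, edgeR adjusted p = 0.395).

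All spots of a section were also sorted into 5 equal groups by enzyme share, as a description without a test. From the group with the lowest enzyme share to that with the highest, S100a6 went from 367 to 180 and from 360 to 153 nCPM in the Ehmt2 +/+ sections and from 987 to 554 and from 602 to 364 in the Ehmt2 fl/fl sections. S100a4 was lower at the end too, going from 47.7 to 26.2, 71.5 to 30.5, 253 to 137 and 174 to 133. S100a10 followed this course in the Ehmt2 +/+ sections, from 213 to 75 and from 255 to 107, and was nearly level in the Ehmt2 fl/fl sections, from 738 to 782 and from 445 to 505. S100a10 was therefore as high in the enzyme-rich as in the enzyme-poor spots of the sections labelled Ehmt2 fl/fl.

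**Figure D5:**
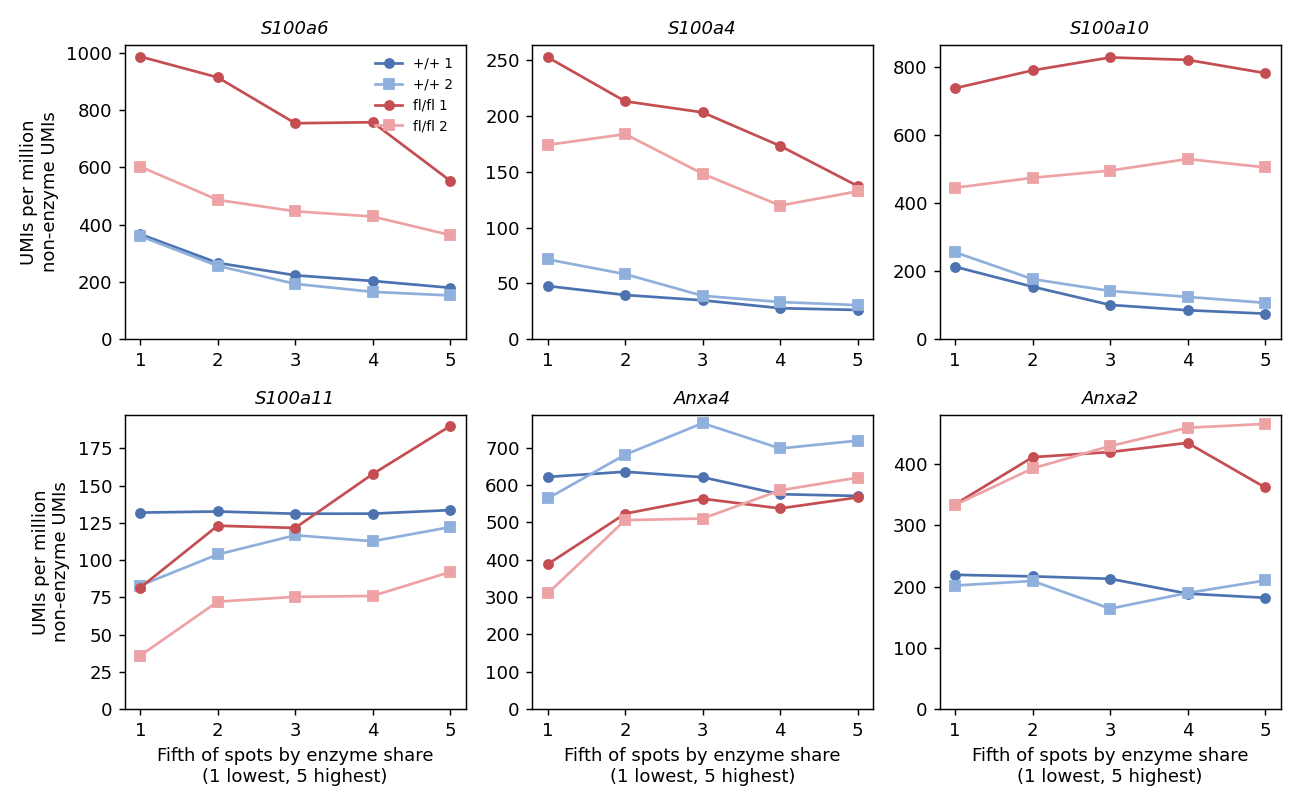
nCPM (y axis, from 0) of 6 of the genes over 5 equal groups of each section's spots ordered by the share of digestive enzyme UMIs (x axis, 1 lowest, 5 highest), a line per section. S100a6 and S100a4 were lower in the last group than in the first in the 4 sections, and S100a10 was lower there in the Ehmt2 +/+ sections and stayed between 738 and 828 in Ehmt2 fl/fl replicate 1 and between 445 and 529 in Ehmt2 fl/fl replicate 2.

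S100a11 was higher at the end in 3 sections, going from 83.0 to 122 in Ehmt2 +/+ replicate 2, from 81.6 to 190 and from 36 to 92.0 in the Ehmt2 fl/fl sections, and was level in Ehmt2 +/+ replicate 1 (132 and 134). Anxa4 was higher at the end in both Ehmt2 fl/fl sections, going from 388 to 567 and from 310 to 620, and went from 622 to 571 and from 564 to 719 in the Ehmt2 +/+ sections. In the highest group Anxa4 therefore lay between 567 and 719 in all 4 sections, and in the lowest group the genotypes were apart. The range of enzyme share differed by genotype, since the median of the lowest group was 55.4%, 36.1%, 7.04% and 4.52% and that of the highest 65.9%, 60.5%, 35.2% and 34.0%. Depth moved along the groups as well, from a median of 2197 to 8811 UMIs per spot in Ehmt2 +/+ replicate 1 and from 902 to 1483 in Ehmt2 fl/fl replicate 2, and its part in these courses was not tested.

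Spot by spot the 9 genes showed almost no common variation at this depth. Over the 36 pairs the mean within-section Pearson correlation was at most 0.037 (Anxa2 with Anxa4, 6144 to 7871 spots per section), on the natural log of 1 plus UMIs per 10000 non-enzyme UMIs. Spots of a section share its library and differ in depth. Correlations of the genes with the natural log of a spot's UMIs ran from -0.024 (S100a4, Ehmt2 +/+ replicate 2) to 0.28 (Anxa4, Ehmt2 +/+ replicate 1). The part of depth in the correlations between genes was not tested. S100a4 and S100a6, 6836 bases apart on chromosome 3, had a mean of 0.033, and after thinning they shared 1.18 times as many spots as the product of their shares gives, 1.12 to 1.28 times in the 4 sections. Over the 36 pairs this mean ratio ran from 0.874 (Anxa1 with S100a11) to 2.05 (Anxa1 with S100a4), so the neighbouring pair did not stand out. Among 1161 genes read in at least 5 percent of the spots of each section, those most like each gene also had weak correlations. They were Zg16, Spint2 and Epcam for Anxa4 (mean r 0.091, 0.091 and 0.090), Ccl6, Tmsb4x and Col3a1 for S100a6 (0.081, 0.066 and 0.066), Reg1, Gp2 and Zg16 for S100a11 (0.063, 0.059 and 0.057) and Ccl6, Actb and Ctsb for S100a4 (0.061, 0.048 and 0.039). For S100a10 they were Sdc4, Actb and Tpm3 (0.057, 0.056 and 0.054), for Anxa2 Hsp90ab1, Cystm1 and Krt18 (0.060, 0.054 and 0.054), for Anxa3 Txn1, Epcam and Arhgdia (0.048, 0.048 and 0.048), for Anxa5 Serpinb1a, Spp1 and Spink1 (0.048, 0.047 and 0.046) and for Anxa1 Rab5c, Ap2s1 and Kdm4a (0.021, 0.021 and 0.020). Correlations this weak in sparse counts are no finding.

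The rest of both families and the known partners were read in the same fits. No gene of 7 other annexins (6 tested, Anxa13 listed at 0), 10 other S100 genes or 13 binding partners and receptors was called between genotypes or in any class of spots, in either direction. Ahnak, a large scaffold that binds the annexin A2 complex, gave 96.2 and 97.8 nCPM in the Ehmt2 +/+ sections and 255 and 225 in the Ehmt2 fl/fl sections, with a log2 fold change of 0.20 ± 0.98 (SE, edgeR adjusted p = 0.928). Myh9, the non-muscle myosin heavy chain that S100A4 binds, gave 260, 179, 364 and 276, with a log2 fold change of -0.67 in the fit with TMM (edgeR adjusted p = 0.863), opposite in direction to these levels. S100g, which encodes the calcium-binding protein calbindin-D9k, had the smallest p of the 3 lists. It gave 94.9, 32.9, 14.6 and 14.2 nCPM and a log2 fold change of -3.55 ± 0.94 (SE, edgeR adjusted p = 0.0986), and in both Ehmt2 fl/fl sections it was near the olfactory median. Anxa6 gave 212, 106, 143 and 117 and S100a16 gave 165, 118, 132 and 123, and for both the genotypes overlapped. Plg and Fpr2, the genes of plasminogen and of a receptor for annexin A1, lay within the range of background in all 4 sections. Plg gave 0.611, 10.9, 12.5 and 17.7 and Fpr2 1.28, 10.1, 19.8 and 19.2. Of these values, 19.8 for Fpr2 in Ehmt2 fl/fl replicate 1 stood apart from the olfactory median of 10.4 there, below the 95th percentile of 21.2. So did 1.28 for Fpr2 in Ehmt2 +/+ replicate 1, beside a median of 0.672 and a 95th percentile of 1.53.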

How the data were processed

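The deposited tables hold whole UMI counts of each gene in each spot, not normalized. Space Ranger made them for the authors, with an mm10 reference and probes of the mouse Visium set. From these, 304 features marked as deprecated probes were left out of 32589. The mapping of spots to tissue positions was not used here. Of the barcodes, which mark slide positions, 13898 are listed in all 4 sections, so they do not identify tissue.

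Counts were summed per section over spots of at least 500 UMIs. Each section was 1 replicate. Between genotypes, p-values measure the spread between sections. In the fits of marker-rich spots section was a block. There they measure how the difference between rich and other spots varied from section to section. For the sums, the quasi-likelihood test of edgeR 4.0.16 was run under R 4.3.3 after TMM normalization, on genes kept by filterByExpr (minimum count 10). Benjamini-Hochberg adjustment covered all genes tested, with a threshold of 0.05, and DESeq2 1.42.0 was an alternative. The SE of a log2 fold change is its size divided by the square root of F. Single values got an exact permutation test, two-sided. Fits were tested on simulated data. The rest ran in Python 3.11.15 (scipy 1.17.1, numpy 2.4.6, matplotlib 3.10.9, pandas 2.3.3). A gene of no UMI is "listed at 0". If a probe for it was read, a true mean of up to about 3 counts is not excluded at 95% confidence. Whether genes at 0 in all 4 sections, such as Anxa13 and Xist, had a probe was not checked. Their 0 is therefore not read as absence of the RNA.

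The 9 genes and the marker and partner lists were chosen with earlier results of these data known. The text names the 9 genes, the 3 genes most correlated with each, Ehmt2 and lists of other annexins, other S100 genes, binding partners and sex-linked genes as counts. Ahnak, Myh9, S100g, Anxa6, S100a16, Plg and Fpr2 were picked from these lists for their values or their role after the values were seen. The alternatives were other normalizations, DESeq2, enzyme genes left out or kept, no filter on low counts, other spot limits (1 and 1000 UMIs), thinning to 500 UMIs, lymphoid-rich spots (at least 10 list UMIs per 10000) left out, the top 20 percent of spots and each section left out. Taking off the olfactory median, library sizes of non-enzyme genes alone and the fits on 3 sections were added after the data were seen. Gene positions are from GENCODE M21, to which the files' gene identifiers matched for all 9.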

Additional observations from a re-analysis of the deposited data

How the results depend on the processing

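No paired analysis was possible because the labels carry no replicate numbers: replicates were numbered in accession order and pair no animals. Between genotypes, 22 genes and 0 of the 9 were called, against 400 and 5 with library sizes alone, 3 and 0 with upper-quartile normalization, 293 and 0 with DESeq2, 91 and 1 with library sizes of non-enzyme genes alone and 14 and 0 with thinned spots. Direction changed as well: 11 of the 22 were higher in Ehmt2 fl/fl, against 388 of the 400 with library sizes alone and 11 of the 293 with DESeq2. With a section left out, 0 to 16653 genes and 0 to 4 of the 9 were called, the highest without Ehmt2 +/+ replicate 2. The cause was not tested.

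Log2 fold changes turned sign as follows. With library sizes alone Anxa2 had 1.91, Anxa3 1.52, Anxa4 0.54, Anxa5 1.28 and S100a11 0.66. With upper-quartile normalization Anxa2 had 0.57 and Anxa3 0.14. With library sizes of non-enzyme genes alone Anxa2 had 1.03, Anxa3 0.62 and Anxa5 0.35. With DESeq2 Anxa1 had -0.31 and S100a6 -0.063. With spots of at least 1000 UMIs Anxa1 had -0.042, and with thinned spots Anxa2 had 0.26. With a section left out the ranges were -0.28 to 0.31 for Anxa1, -0.78 to 0.80 for Anxa2, -1.36 to 0.59 for Anxa3, -1.77 to 0.58 for Anxa5 and -0.30 to 1.27 for S100a6. S100a4 (0.62 to 1.67) and S100a10 (0.69 to 1.77) stayed above 0 and Anxa4 (-2.02 to -0.67) and S100a11 (-2.13 to -0.29) below 0 in those 4 fits. The difference in share of spots, in percentage points, turned to -1.78 for Anxa3, -13.9 for Anxa4, -5.84 for Anxa5 and -7.98 for S100a11 without thinning, where Ehmt2 +/+ replicate 1 is deepest. It turned to -5.43 for Anxa4 and -0.32 for S100a11 when thinned to 500 non-enzyme UMIs, in the spots that held that many.

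In acinar-marker-rich spots 34 genes and 1 of the 9 were called, against 2425 and 3 with library sizes alone, 1291 and 2 with DESeq2, 255 and 0 with the top 20 percent of spots and 75 and 1 with enzymes kept. The direction turned between these fits. In those spots 33 of the 34 were lower, as were 2250 of the 2425 with library sizes alone, while 1274 of the 1291 with DESeq2 were higher. With a section left out there were 13 to 2109 genes and 0 to 5 of the 9, the highest without Ehmt2 +/+ replicate 1, where 1830 of the 2109 were higher. For Anxa1 DESeq2 gave -1.01 with no adjusted p. In duct-marker-rich spots 6 genes were called, against 0 with DESeq2 (no adjusted p under the threshold), 10 with the top 20 percent and 1 to 8 with a section left out. In islet-marker-rich spots 154 were called, against 87 with DESeq2 and 107 to 150 with a section left out. In fibroblast-marker-rich spots 52 and 0 of the 9 were called, against 220 and 2 with library sizes alone, 92 with DESeq2, 123 with the top 20 percent, 28 without a filter and 14 to 72 with a section left out. Over 3 sections, endothelial-marker-rich spots gave 0 genes, against 69 with library sizes alone, 4 with DESeq2 and 0 to 13 with a section left out. Macrophage-marker-rich spots gave 5 genes and 0 of the 9, against 157 and 2 with library sizes alone, 69 and 1 with DESeq2, 16 with the top 20 percent, 10 with enzymes kept, and 0 to 284 genes and 0 to 2 of the 9 with a section left out. Depth limits Anxa1 most, with 106 to 255 UMIs per section.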
